A study of Mus musculus with 9 samples.

Results

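Desmosome genes were followed in the esophagus of newborn mice with and without the transcription factor p63. The set held 10 genes named for this structure: the cadherins Dsc2, Dsc3, Dsg2 and Dsg3, the armadillo-repeat plaque proteins Pkp1, Pkp3 and Jup, the plakins Dsp and Ppl, and the membrane protein Perp. Every non-control array probe whose gene name was 1 of these was taken, which gave 20 of 41174 probes. Of these, 19 gave a Cy5 signal well above background on 2 or more of the 9 arrays, and they stood for 9 of the 10 genes. The single Dsc3 probe did not. Dsg3 passed only through its wild type arrays, so counts and medians are given over the 8 genes detected in every genotype.

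Desmosomes are patches of strong adhesion between neighbouring cells. Desmocollins and desmogleins span the membrane and bind their partners on the next cell, and inside the cell plakoglobin (Jup) and the plakophilins link their tails to desmoplakin (Dsp), which holds the keratin filaments. Stratified epithelia such as that of the esophagus carry many desmosomes, and the p63 protein, the product of Trp63, is needed to form them. Heart muscle also has desmosomes, built with Dsg2, Dsc2, Dsp, Jup and Pkp2.

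All groups were C57BL/6J mice at postnatal day 0. They were wild type mice (n = 4), p63-/- mice (n = 3), and p63-/- mice with an added Cdx2 transgene, whose name points to the villin promoter (p63-/-;Cdx2, n = 2, which the labels number out of 3). The replicates are biological ones by their labels. The labels give the cell type as epithelium, while the extraction protocol names esophageal tissue. Each RNA was labelled with Cy5 and hybridised together with a Cy3-labelled reference RNA from 11 mouse cell lines, with no dye swap. Each genotype lay on its own slide and in its own scan, so the effect of genotype and that of slide or scan cannot be told apart. Each array had 30018 to 33228 probes well above background, and no sample spot was saturated.

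The targeted gene was measured first. The log2 ratio of Trp63 to the reference was 3.53, 3.78, 3.39 and 4.13 in wild type. It was 2.74, 2.73 and 2.73 in the knockout, and with Cdx2 it was 3.37 and 3.09. The wild type arrays all lay above those of both knockout groups, and the knockout difference was -0.97 on the log2 scale (SE 0.17, adjusted p = 0.0747) in the ratio and -1.18 (SE 0.16, adjusted p = 0.00996) in the sample channel. The Trp63 probe was still well above background on every knockout array, and the sources used here do not say whether it lies in the deleted part of the gene. No Cdx2 probe passed the filter. One label of wild type replicate 4 reads p63-/-, against its title and genotype, and its Trp63 ratio was the highest of the 9 arrays.

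Markers of cell types were read beside the members. The 7 markers of basal squamous epithelium summed to a sample signal of 272000 to 338000 in wild type. The sums were 51000 to 68900 in the knockout and 52200 to 60400 with Cdx2, with all 7 well above background in every group. The 15 markers of epithelium of any kind summed to 149000 to 361000, 136000 to 180000 and 127000 to 254000, and all 15 were well above background throughout. The 8 markers of heart muscle were also all well above background, with sums of 102000 to 353000, 245000 to 516000 and 129000 to 388000, although heart is not the labelled tissue. The ranges of both of these lists overlap between the genotypes, and none of their genes was called in the ratio in the knockout. In the sample channel, 1 of the 15 epithelium markers was called lower in the knockout, where 0.967% of all genes were. With Cdx2, 1 of the 15 was called lower than in wild type in each measure, where 0.971% of all genes were in the ratio and 1.56% in the sample channel. The 8 smooth muscle markers, all well above background, summed to 336000 to 605000 in wild type, above the 268000 to 291000 of the knockout and the 227000 to 290000 with Cdx2, with no gene called in either measure. Sums overlapped between wild type and knockout for skeletal muscle (299000 to 1190000 and 609000 to 1210000), fibroblasts (920000 to 1080000 and 945000 to 1130000), trachea and lung (483000 to 928000 and 692000 to 893000) and thyroid, which ran from 595 to 217000 within wild type. For the 4 measured skin markers they were 4060 to 5020 and 2580 to 3810, and none of these 5 lists held a called gene. Their part in the results below was not tested. In bulk RNA, fewer cells of a type and less RNA per cell cannot be told apart.

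The probes read different stretches of their transcripts, and their sequences are shown for the plaque genes and Perp because each result below is the signal of these oligonucleotides. For Dsp, 4 probes spaced along a long transcript allow the same gene to be read at several places; positions count from the start of the transcript that the array design names, and coordinates are mouse build mm9. Probes that may lie in a 3′ UTR are given by the first 30 of their 60 bases. The probe of Pkp1 starts at base 4371 of its transcript and lies on the minus strand at chr1:137768027-137768086, that of Pkp3 on the plus strand at chr7:148276224-148276283, that of Jup on the minus strand at chr11:100232695-100232754, and that of Perp on the plus strand at chr10:18576697-18576756. The Ppl probe used for the gene lies on the minus strand at chr16:5086384-5086428, and the 4 Dsp probes lie on the plus strand of chromosome 13 between 38285480 and 38290180. No annotation of this build was used here, so exon and UTR borders are not stated.
Pkp1: catcttgtatgagaaccttgtgctgaacgg
Pkp3: ccaccagaaaagaacaggcgcttgcaactg
Jup: ctcacctggaaagctctcaagagcagactg
Perp: gaaaatttgggaatgcgtgtctctgaatac
Ppl: ttctgacttggatcaaaactatcaacagtg
Dsp, from base 5665: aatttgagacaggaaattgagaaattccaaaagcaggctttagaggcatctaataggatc
Dsp, from base 6803: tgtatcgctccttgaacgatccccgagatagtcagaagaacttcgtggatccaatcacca
Dsp, from base 8879: atgctacgggcaattcttcttactcctatt
Dsp, from base 9266: aaattacactgactactggtggcttagtac

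Promoters were looked up because the comparison removes a transcription factor. RefSeq promoter windows (250 bases before to 50 after the start, GRCm38.p6) were at hand for 2 of the 10 genes, Jup and Dsp. The decamer consensus of the p53 family, to which p63 belongs (purines, a C, A or T bases, a G and pyrimidines, read on both strands), was found in the Dsp window and not in the Jup window, and 8.36% of all 32851 windows held it. The Dsp match has its first base at -190 relative to the gene start and is shown in capitals within the 250 bases upstream, on the plus strand at chr13:38151044-38151293.
Dsp promoter: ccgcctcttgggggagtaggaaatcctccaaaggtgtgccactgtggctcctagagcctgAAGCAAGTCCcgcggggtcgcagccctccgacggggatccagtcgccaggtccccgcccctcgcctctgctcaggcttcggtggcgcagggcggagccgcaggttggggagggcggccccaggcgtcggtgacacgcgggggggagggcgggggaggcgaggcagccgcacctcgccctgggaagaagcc
A pair of CATG cores with 6 bases between them was in neither window, against 0.712% of all windows. Such matches describe letters and say nothing about binding.

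In the knockout against wild type, several measured desmosome genes were lower, and none was higher at the threshold. On the log2 ratio of sample to reference, the primary measure, 4 of the 8 fell (Pkp1, Perp, Ppl and Pkp3) and 4 did not pass, where 0.269% of all 22644 genes tested were called lower at an adjusted p under 0.05 (limma, Benjamini-Hochberg). On the normalized sample channel alone, 6 of the 8 fell, with Dsc2 and Dsp joining them, against 0.967% of all genes called lower. Jup and Dsg2 passed in neither measure. The median log2 difference of the 8 genes was -0.96 in the ratio and -1.71 in the sample channel, beside 0.02 and 0.01 over all genes. Wild type and knockout arrays did not overlap for 6 of the 8 genes in the ratio and 7 of the 8 in the sample channel, where 4.56% and 8.86% of all genes did not overlap and were lower. These calls rest on few arrays: leaving out 1 array at a time gave 1 to 5 members called in the ratio, the lowest without knockout replicate 2, and 5 to 6 in the sample channel.

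**Figure D1:**
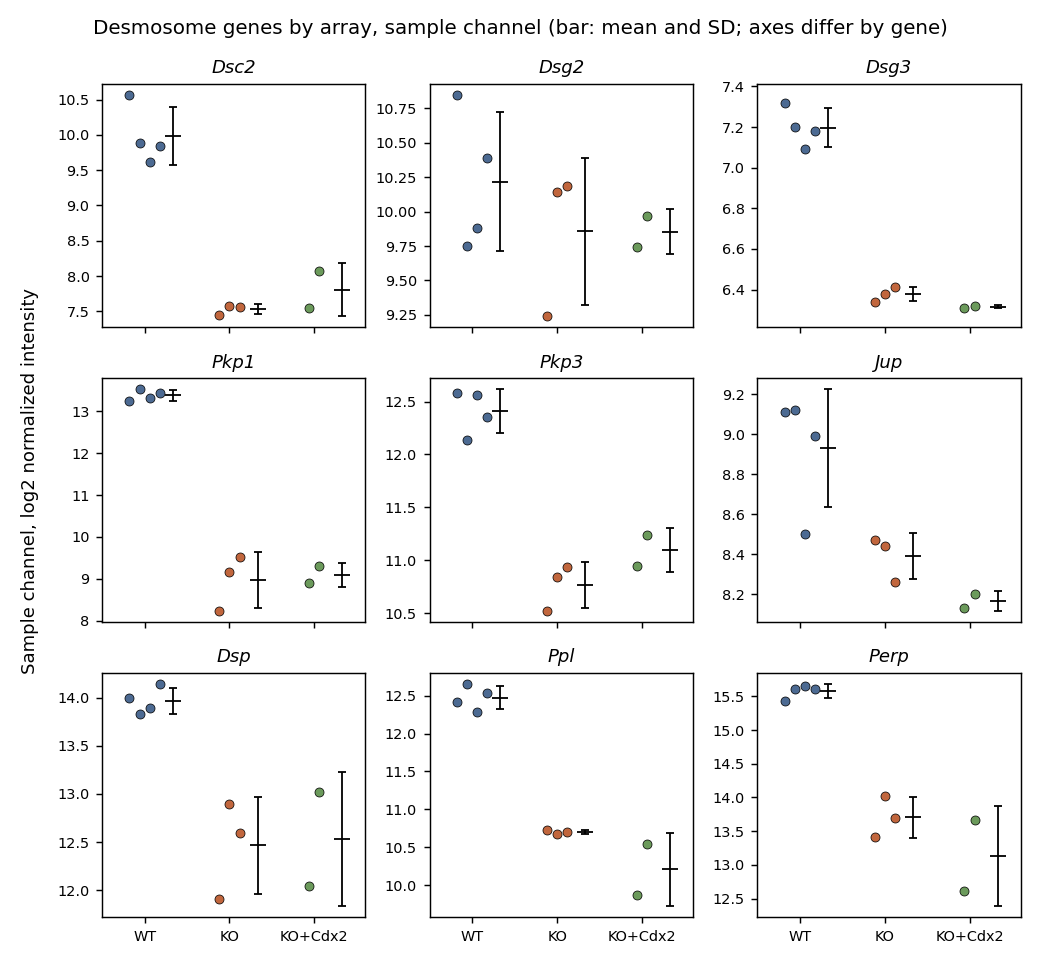
Normalized sample channel of the 9 measured desmosome genes on each array, in log2 intensity units, for wild type (n = 4), p63 knockout (n = 3) and p63 knockout with Cdx2 (n = 2); points are arrays, the bar beside them is the mean with its SD, and the vertical axes differ by gene. Wild type and knockout points do not overlap for 7 of the 8 genes detected in every genotype, where 8.86% of all genes did not overlap and were lower. For Dsg2 the groups overlap. Dsg3 on the 5 knockout arrays was not well above background and is left out of this count.

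Among the cadherins, desmocollin 2 (Dsc2) had log2 ratios of 2.43, 2.33, 1.38 and 2.38 in wild type and 0.58, 0.93 and 0.76 in the knockout. The groups did not overlap, and wild type replicate 3 stood apart from the other wild type arrays. The difference of -1.37 (SE 0.25) did not pass (adjusted p = 0.0928) with all arrays, and it was -1.62 (adjusted p = 0.00116) without wild type replicate 3. In the sample channel Dsc2 read 10.57, 9.88, 9.62 and 9.85 in wild type and 7.45, 7.58 and 7.56 in the knockout. There it fell by 2.45 on the log2 scale, 5.47-fold (SE 0.23, adjusted p = 0.00137). The other 2 Dsc2 probes gave sample channel differences of -1.98 (SE 0.22) and -2.07 (SE 0.26), both passing over 33749 probes, and ratio differences of -1.17 and -1.55 that did not pass.

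Desmoglein 3 (Dsg3), the desmoglein of the lower layers of squamous epithelia and the autoantigen of pemphigus vulgaris, was well above background on 4 of 4 wild type arrays and on none of the 5 knockout arrays of either kind. Its sample channel read 7.32, 7.20, 7.09 and 7.18 in wild type and 6.34, 6.38 and 6.41 in the knockout. In that channel the groups did not overlap, and the fold is a bound for that channel alone. The Dsg3 signal was at least 1.76-fold lower in the knockout and at least 1.68-fold lower by its second probe. Such bounds are open to dye bias. The gene entered the tests only through the group where it was high and so had to differ, and no test of it is used. Its log2 ratios were 0.52, 0.53, 0.13 and 0.51 in wild type and 0.13, 0.12 and 0.14 in the knockout, so the groups overlapped in the ratio. The normalized reference channel of this probe also differed, by -0.52. The second Dsg3 probe had log2 ratios of 0.74, 0.50, 0.15 and 0.53 in wild type and -0.20, -0.12 and -0.19 in the knockout. Desmocollin 3 (Dsc3), the partner desmocollin of the same layers, had its single probe at chr18:20121880-20121939, and it stayed below that limit on all 9 arrays. Its log2 ratio lay between -0.02 and 0.08, and no fold is given.

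Desmoglein 2 (Dsg2), the broadly expressed desmoglein of simple epithelia and heart, gave no call. Its log2 ratio was 3.42, 2.67, 1.73 and 3.29 in wild type and 2.36, 2.98 and 2.89 in the knockout, so that all knockout values lay within the wild type range. The difference was -0.03 (SE 0.38, 95% interval -0.91 to 0.84, adjusted p = 0.988) in the ratio and -0.36 (SE 0.32, 95% interval -1.09 to 0.37, adjusted p = 0.638) in the sample channel. These intervals do not show that the genotypes were equal. The sign of the ratio difference is unsettled: it was -0.38 without wild type replicate 3, 0.18 without wild type replicate 1 and -0.47 with the scanner software's processed signals, none passing. The 4 Dsg2 probes gave ratio differences from -0.19 to 0.07 and sample channel differences from -0.43 to -0.13, none passing.

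**Figure D2:**
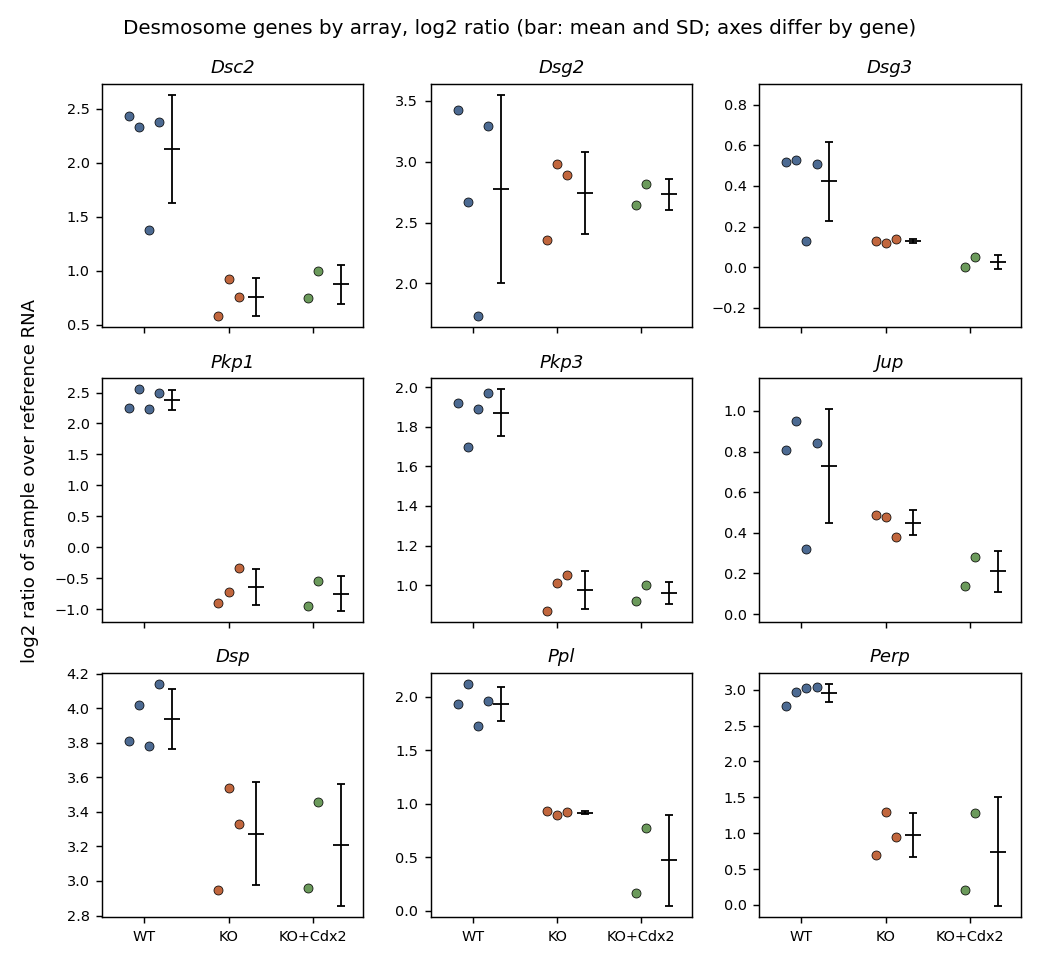
Log2 ratio of sample over reference RNA for the 9 measured desmosome genes on each array of the 3 genotypes, with the mean and SD beside the points and a separate vertical axis for each gene. Pkp1 lies between 2.24 and 2.55 in wild type and below 0 on all 5 knockout arrays, while wild type replicate 3 lies lowest of its group for 7 of the 9 genes, all but Pkp3 and Perp.

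Of the armadillo-repeat plaque proteins, plakophilin 1 (Pkp1), which in skin reinforces desmosomes of the upper layers, separated the genotypes in both measures. Its log2 ratio was 2.25, 2.55, 2.24 and 2.50 in wild type, -0.90, -0.72 and -0.33 in the knockout. With Cdx2 it was -0.95 and -0.55. The normalized ratio was thus above 0 on the wild type arrays and below 0 on all 5 arrays without p63. Before normalization the sample intensity was 372, 864 and 1060 in the knockout, beside 417, 673 and 632 in the reference. With Cdx2 it was 595 and 808, beside 669 and 606. The raw sample signal was thus below the reference on replicate 1 of each of these groups and above it on their other arrays. A ratio below 0 is relative to the normalization and need not mean less raw signal than the reference. The knockout difference was -3.04 (SE 0.16, adjusted p = 2.4e-04), 8.21-fold. In the sample channel Pkp1 read 13.25, 13.52, 13.31 and 13.43 in wild type and 8.23, 9.17 and 9.51 in the knockout, and fell by 4.41 on the log2 scale, 21.2-fold (SE 0.28, adjusted p = 2.1e-04). Pkp1 passed in both measures under every alternative that was run and without any single array.

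Plakophilin 3 (Pkp3), found in most desmosomes of stratified and simple epithelia, had log2 ratios of 1.92, 1.70, 1.89 and 1.97 in wild type and 0.87, 1.01 and 1.05 in the knockout. The groups did not overlap. It fell by 0.89 in the ratio (SE 0.09, adjusted p = 0.00758) and by 1.64 in the sample channel (SE 0.15, adjusted p = 0.00137), 1.86-fold and 3.13-fold. The ratio call was lost without knockout replicate 2 (-0.91, adjusted p = 0.0502) and after scale normalization between arrays (-1.29, adjusted p = 0.557).

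Plakoglobin (Jup), which serves both desmosomes and adherens junctions, had log2 ratios of 0.81, 0.95, 0.32 and 0.84 in wild type and 0.49, 0.48 and 0.38 in the knockout. Wild type replicate 3 lay below the knockout arrays, so the groups overlapped. The differences were -0.28 (SE 0.14, adjusted p = 0.705) in the ratio and -0.54 (SE 0.16, adjusted p = 0.147) in the sample channel. Without wild type replicate 3 the sample channel difference was -0.68 and passed (adjusted p = 0.0176), as it did with the processed signals of the scanner software (-0.78, adjusted p = 0.0327).

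Among the plakins, desmoplakin (Dsp), the obligate link from the plaque to keratin, had log2 ratios of 3.81, 4.02, 3.78 and 4.14 in wild type and 2.95, 3.54 and 3.33 in the knockout. The groups did not overlap, but the difference of -0.66 (SE 0.18) did not pass (adjusted p = 0.315). The sample channel read 14.00, 13.83, 13.89 and 14.14 in wild type and 11.91, 12.90 and 12.59 in the knockout, a fall of 1.50 on the log2 scale, 2.82-fold (SE 0.28, adjusted p = 0.0418). That call is at the edge: it was lost without any 1 of the 4 wild type arrays (adjusted p = 0.0936, 0.102, 0.0902 and 0.121 without replicates 1 to 4) or of the 3 knockout arrays (0.101, 0.0648 and 0.12), and with the scanner software's processed signals (-1.59, adjusted p = 0.0543). After scale normalization between arrays, the ratio difference was -1.56 and did not pass.

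The 4 Dsp probes had differences of one sign and unequal size. On the sample channel the difference was -0.50 at base 5665 (SE 0.13, adjusted p = 0.114), -0.82 at base 6803 (SE 0.11, adjusted p = 0.0129), -1.54 at base 8879 (SE 0.27, adjusted p = 0.0357) and -1.50 at base 9266 (SE 0.28, adjusted p = 0.0422). In wild type the sample channel means of these probes were 7.35, 7.90, 12.45 and 13.96 in the same order, and the part of their brightness in the sizes was not tested. In the ratio the same probes gave -0.19, -0.45, -0.36 and -0.66, none passing.

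**Figure D3:**
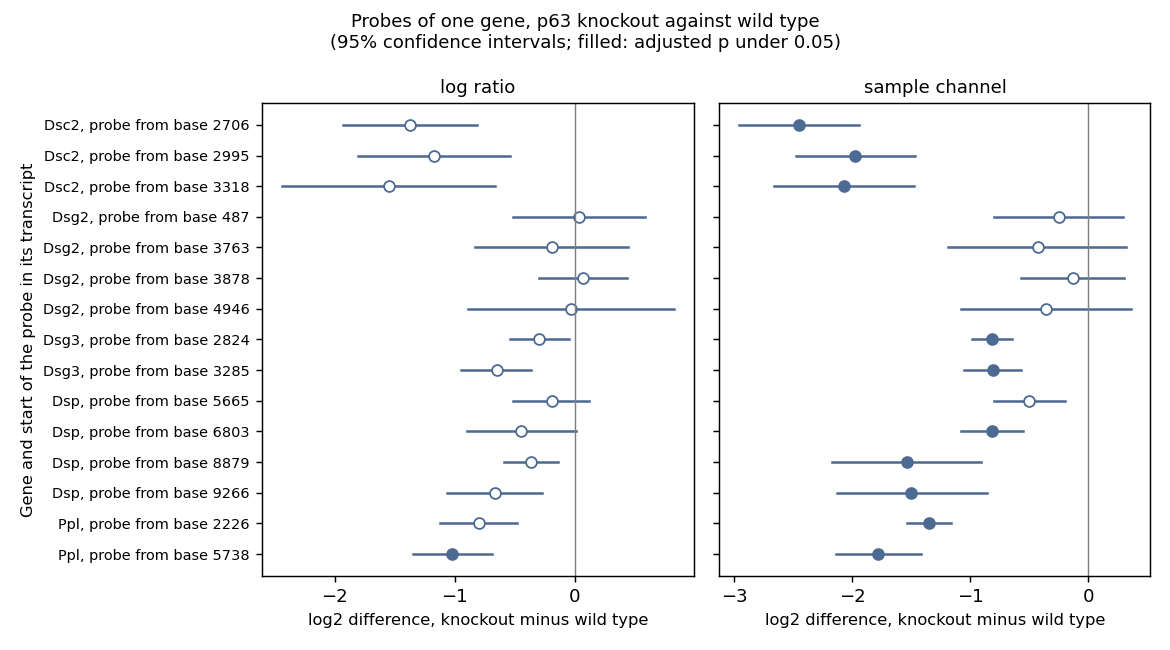
Difference of p63 knockout minus wild type, on the log2 scale, for each kept probe of the genes with several probes, in the ratio (left) and the sample channel (right); lines are 95% intervals and filled points have an adjusted p under 0.05 over 33749 probes. The 3 Dsc2, 2 Dsg3, 4 Dsp and 2 Ppl probes lie below 0 in both measures, and the 4 Dsg2 intervals cross 0; both Dsg3 probes were not well above background in the knockout, so their points are no measured sizes.

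Periplakin (Ppl), a plakin of the cornified envelope that also binds desmosomal plaques, had log2 ratios of 1.93, 2.12, 1.73 and 1.96 in wild type and 0.93, 0.90 and 0.92 in the knockout. The 3 knockout arrays lay within 0.03 of each other and well below wild type. Ppl fell by 1.02 in the ratio (SE 0.15, adjusted p = 0.036), 2.03-fold, and by 1.78 in the sample channel (SE 0.16, adjusted p = 0.00129), 3.43-fold. Its second probe fell by 1.35 in the sample channel (SE 0.08, adjusted p = 1.6e-04) and had a ratio difference of -0.80 (SE 0.14, adjusted p = 0.0904). The ratio call was lost without wild type replicates 1, 2 or 4 (adjusted p = 0.107, 0.127 and 0.121) and without knockout replicates 1, 2 or 3 (0.147, 0.2 and 0.166), with differences of -1.03 to -0.96. It was also lost after scale normalization between arrays (-1.37, adjusted p = 0.312) and with a trended and robust variance prior (adjusted p = 0.0563).

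Perp, a membrane protein of desmosomes in stratified epithelia and a known target of p53 and p63, had log2 ratios of 2.77, 2.97, 3.03 and 3.04 in wild type, and 0.69, 1.30 and 0.95 in the knockout. With Cdx2 they were 0.21 and 1.28. All wild type arrays lay far above the rest, and both groups without p63 were spread more widely than wild type. Perp fell by 1.97 in the ratio (SE 0.25, adjusted p = 0.0175), 3.92-fold. The sample channel read 15.43, 15.61, 15.66 and 15.61 in wild type and 13.41, 14.02 and 13.69 in the knockout, a fall of 1.87 (SE 0.24, adjusted p = 0.00756), 3.66-fold. The ratio call was lost without wild type replicates 2 or 4 (adjusted p = 0.08 and 0.0679), without knockout replicates 1, 2 or 3 (0.0993, 0.0617 and 0.103), at differences of -2.13 to -1.82, and after scale normalization between arrays (-2.55, adjusted p = 0.412). The sample channel call held without any single array.

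The reference RNA was the same on every array, yet its channel moved with the sample for most of these genes. In the knockout against wild type, the normalized reference channel differed by -1.37 for Pkp1, -1.08 for Dsc2, -0.83 for Dsp, -0.76 for Ppl, -0.75 for Pkp3 and -0.26 for Jup, all with an adjusted p under 0.05, and by -0.33 for Dsg2 (adjusted p = 0.448). For Perp it differed by 0.10 (adjusted p = 0.0893). Of all 22647 genes, 2979 passed the same threshold in the reference channel in this comparison, in either direction. The unnormalized Cy3 intensity of Pkp1 was 1570, 1530, 1520 and 1600 on the wild type arrays and 417, 673 and 632 on the knockout arrays. For Pkp1 the shift was thus present before normalization. It was also present in wild type against knockout for Pkp3 (1050 to 1230 and 635 to 666) and Ppl (1050 to 1240 and 609 to 710). The same held for Dsp (665 to 882 and 394 to 476) and Dsc2 (109 to 186 and 48.4 to 71.2). For Jup, Dsg2 and Perp the unnormalized Cy3 intensities of both genotypes overlapped. Over all 22647 genes, the knockout differences of the sample and reference channels correlated at r = 0.73, across genes that are not independent replicates and within arrays that share both channels. For 7 of the 8 genes, all but Perp, the ratio gave the smaller difference. The part of the reference channel in these results was not tested.

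**Figure D4:**
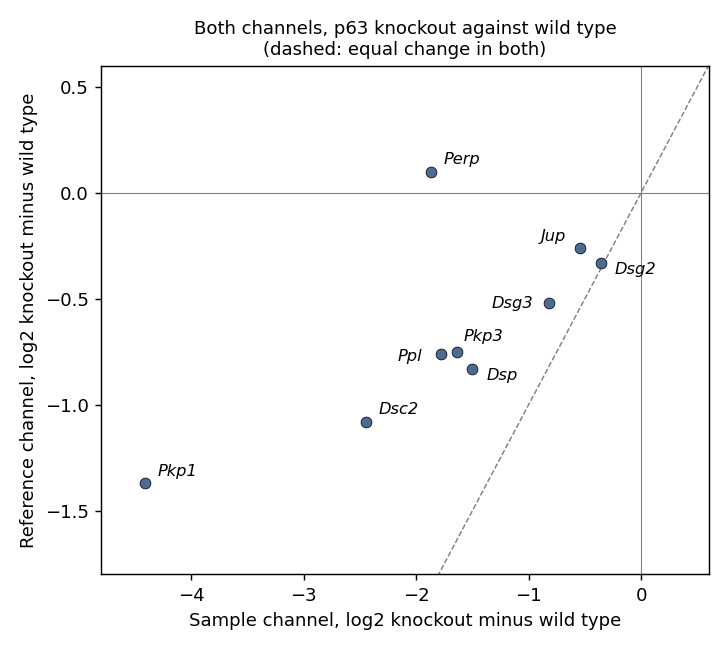
Log2 difference of p63 knockout minus wild type in the sample channel (horizontal) and in the reference channel (vertical) for the 9 measured desmosome genes; the dashed line marks an equal change in both. Points run from Pkp1 at -4.41 and -1.37 towards 0, and Perp lies apart at -1.87 and 0.10; Dsg3 is drawn although its knockout signal was not well above background.

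The knockout with Cdx2 was next compared with wild type. Pkp1, Perp, Ppl and Pkp3 fell in the ratio: Pkp1 by 3.13 (SE 0.18, adjusted p = 4.4e-04), Perp by 2.21 (SE 0.28, adjusted p = 0.0156), Ppl by 1.47 (SE 0.17, adjusted p = 0.011) and Pkp3 by 0.91 (SE 0.10, adjusted p = 0.00976). That is 4 of 8 members, where 0.971% of the 22646 genes tested were called lower. In all, 220 genes were lower and 99 higher, against 73 and 18 after scale normalization between arrays. In the sample channel 5 of 8 fell, where 1.56% of all genes were called lower. The differences were -4.28 for Pkp1, -2.44 for Perp, -2.27 for Ppl, -2.17 for Dsc2 and -1.31 for Pkp3, and Dsg3, not among these counts, was at least 1.84-fold lower. Dsp (-1.43, SE 0.32, adjusted p = 0.0599), Jup (-0.76, SE 0.18, adjusted p = 0.0671) and Dsg2 (-0.37, SE 0.36, adjusted p = 0.603) did not pass. Both comparisons with wild type share the 4 wild type arrays, so their likeness is no independent result.

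These values again depended on single arrays. The ratio call of Perp was lost without wild type replicate 2 (-2.20, adjusted p = 0.0564) or 4 (-2.18, adjusted p = 0.0584), and the sample channel call of Pkp3 without replicate 1 of the group with Cdx2 (-1.17, adjusted p = 0.0512). Without wild type replicate 3, Dsc2 (-1.50, adjusted p = 0.00343) and Jup (-0.65, adjusted p = 0.0202) also passed in the ratio. Jup passed in the sample channel (-0.91, adjusted p = 0.0105). These added calls are not set against a share of all genes. Dsp passed in the sample channel without knockout replicate 1 (-1.43, adjusted p = 0.0387) or without replicate 2 of the group with Cdx2 (-1.92, adjusted p = 0.0406). With only both groups' arrays in the model, Pkp1 was the 1 member called in the ratio, among 50 genes in all, and after scale normalization 2 members were, among 91 genes. With the scanner software's processed signals and with the values of the authors' deposited table, Jup (-0.65 in both) also passed in the ratio. That call too is not set against a share of all genes. Without wild type replicate 4, whose labels disagree, 2 of the 8 members passed in the ratio in the knockout (Pkp1 and Pkp3), where 35 of all genes were called lower. Perp (-1.94, adjusted p = 0.0679) and Ppl (-1.01, adjusted p = 0.121) no longer passed, and Dsg2 was at 0.14. The sample channel then had all 8 differences below 0 and 5 members passing, where 128 of all genes were called lower.

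When both groups without p63 were compared, no member passed the threshold in either measure. No Cdx2 probe was well above background on 2 or more arrays, so the transgene's own RNA was not seen here. In the ratio, 0 of 8 members were called, as were 0% of all 22643 genes (limma; 11.4% had an unadjusted p under 0.05, and the lowest adjusted p was 0.214). On the sample channel 0 of 8 were called, beside 0.216% of all genes (17.8% had an unadjusted p under 0.05). The lowest p among the members was that of Ppl. It had log2 ratios of 0.93, 0.90 and 0.92 in the knockout against 0.17 and 0.77 with Cdx2, with no overlap, and a difference of -0.45 (SE 0.18, 95% interval -0.85 to -0.05, unadjusted p = 0.0331, adjusted p = 0.411). The sample channel difference of Ppl was -0.49 (SE 0.19, adjusted p = 0.24). Perp differed by -0.24 (95% interval -0.91 to 0.43) in the ratio and -0.57 (95% interval -1.23 to 0.09) in the sample channel, and Pkp1 by -0.10 (95% interval -0.54 to 0.35) and 0.12 (95% interval -0.64 to 0.88). The normalized reference channel of Perp also differed between these groups, by -0.33 (limma, adjusted p = 0.00833), and its part was not tested. No other of the 8 members passed in that channel here, while 1924 of all 22647 genes did. For Dsg2 the ratio interval ran from -1.06 to 1.03.

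**Figure D5:**
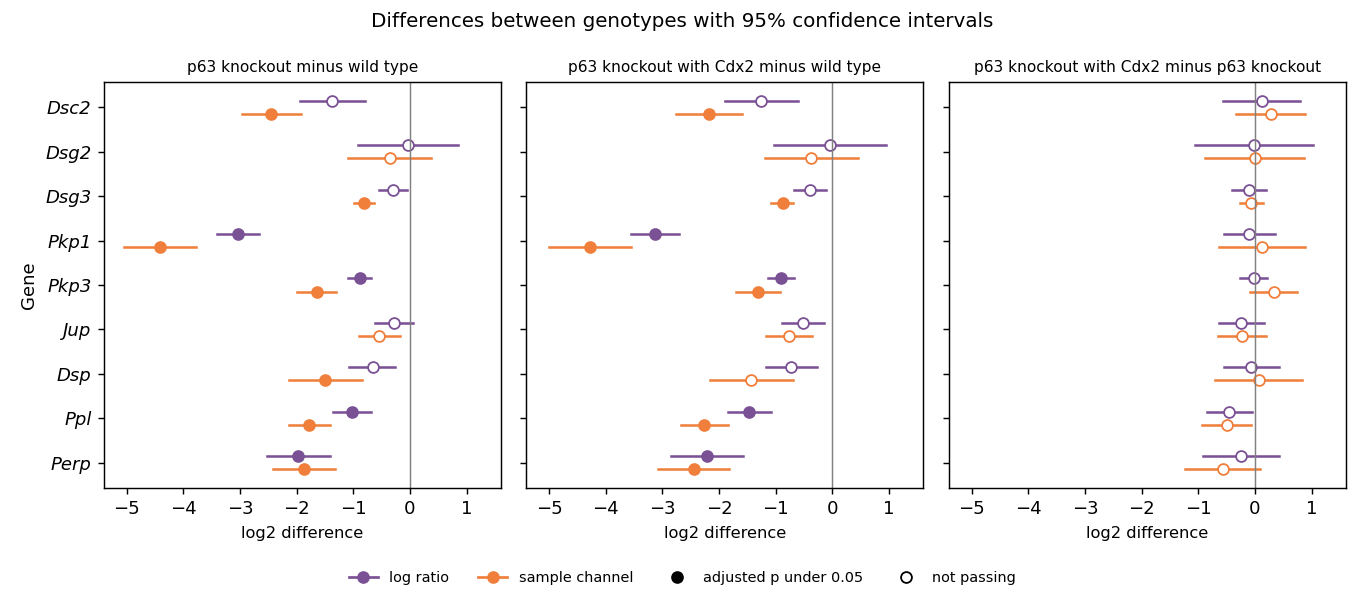
Log2 differences of the 9 measured desmosome genes with 95% intervals in the ratio and the sample channel, for the knockout minus wild type (left), the knockout with Cdx2 minus wild type (middle) and the knockout with Cdx2 minus the knockout (right); filled points have an adjusted p under 0.05. The points left of 0 in the first 2 panels reach -4.41 for Pkp1, and in the right panel all points are open; Dsg3 points against wild type are no measured sizes, since its signal without p63 was not well above background.

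Set in order by genotype, wild type was highest in mean log2 ratio for all 8 genes detected in every genotype. The 2 groups without p63 were neighbours that did not differ beyond the test for any of them. The means were 2.39 ± 0.16 (SD, n = 4), -0.65 ± 0.29 (n = 3) and -0.75 ± 0.29 (n = 2) for Pkp1, 2.95 ± 0.13, 0.98 ± 0.31 and 0.74 ± 0.76 for Perp, and 3.94 ± 0.17, 3.27 ± 0.30 and 3.21 ± 0.35 for Dsp. For Dsg2 they were 2.78 ± 0.77, 2.74 ± 0.33 and 2.73 ± 0.13, which overlap throughout.

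Set against the reference RNA, wild type esophagus had a mean normalized log2 ratio above 0 for all 8 genes detected in every genotype. Dsp (3.94), Perp (2.95), Dsg2 (2.78) and Pkp1 (2.39) had mean log2 ratios above 2, as did Dsc2 (2.13 ± 0.50), and that of Jup (0.73 ± 0.28) was below 1. Without a dye swap, a dye effect of each probe stays in these ratios. Of the probes used for the 8 genes, that of Pkp1 alone had a mean normalized log2 ratio above 0 in wild type and below 0 in both groups without p63.

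Other desmosome and plaque genes were taken from a list of 12, of which 8 were tested and Dsc1, Dsg1b, Dsg1c and Dsg4 did not pass the background filter. None of the 8 was called in the ratio in the knockout, where 0.269% of all genes were called lower. The lowest p was that of envoplakin (Evpl), the partner plakin of Ppl, at -0.40 (SE 0.09, adjusted p = 0.178), and it fell by 0.52 (SE 0.10, adjusted p = 0.0475) in the knockout with Cdx2. The sample channel of Evpl read 15.18, 15.47, 15.18 and 15.39 in wild type and 12.11, 12.58 and 12.50 in the knockout, a fall of 2.91 (SE 0.16, adjusted p = 1.0e-04). The measures thus differ widely for Evpl. Epiplakin (Eppk1) fell by 0.39 in the sample channel (SE 0.06, adjusted p = 0.0242). Evpl and Eppk1 were the 2 of the 8 called there in the knockout, where 0.967% of all genes were called lower. Plakophilin 2 (Pkp2), the plakophilin of heart and simple epithelia, did not pass, with differences of 0.45 (SE 0.28, adjusted p = 0.75) in the ratio and 0.68 (SE 0.26, adjusted p = 0.254) in the sample channel. The median ratio difference of the 8 was -0.10.

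The adherens junction, the neighbouring cadherin junction that is anchored to actin, moved in 1 of 14 genes. Nectin1, an adhesion molecule of that junction, fell by 0.59 in the ratio (SE 0.07, adjusted p = 0.0175) and by 1.07 in the sample channel (SE 0.08, adjusted p = 3.8e-04) in the knockout. The other 13 did not pass in either measure, where 0.269% of all genes were called lower in the ratio and 0.967% in the sample channel. The list's median difference was 0 in the ratio and -0.06 in the sample channel. E-cadherin (Cdh1) differed by 0.43 (SE 0.22, adjusted p = 0.708) in the ratio. Its sample channel read 12.76, 13.20, 11.84 and 12.07 in wild type and 13.17, 13.71 and 13.61 in the knockout, which overlap.

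Keratins, the filaments that desmosomes hold, were read from a list of 10. In the ratio 3 fell in the knockout: Krt14, the basal-layer keratin, by 2.22 (SE 0.10, adjusted p = 2.4e-04), Krt6a by 1.88 (SE 0.10, adjusted p = 2.4e-04) and Krt4, a suprabasal keratin of the esophagus, by 0.94 (SE 0.10, adjusted p = 0.00803). Krt13, the partner of Krt4, joined them in the knockout with Cdx2 (-1.46, SE 0.20, adjusted p = 0.0206). On the sample channel 7 of the 10 fell in both comparisons with wild type, with Krt5, Krt7 and Krt15 added, and none was higher. Krt8, Krt18 and Krt19 passed in neither measure. Of all genes, 0.269% were called lower in the ratio in the knockout and 0.971% with Cdx2. In the sample channel these shares were 0.967% and 1.56%. The median difference of the list in the knockout was -0.91 in the ratio and -2.75 in the sample channel.

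Likeness of profile was measured as the root mean square difference over the 9 arrays of log2 ratios centred on the wild type mean, among 19659 genes well above background on every wild type array. Nearest to Pkp1 were Serpinb5 (0.269 log2 units), which encodes maspin, Tprg (0.346) and Cysrt1 (0.40). Nearest to Perp were Duoxa1 (0.256), a maturation factor of dual oxidases, Trim29 (0.328) and Krt14 (0.332). Nearest to Dsg2 were Nipal2 (0.209), Khdrbs2 (0.214) and Sorl1 (0.214). Among the 8 members detected in every genotype, the closest pair was Dsp and Pkp3 at 0.247, and the farthest was Dsg2 and Pkp1 at 2.31. These distances describe the 9 arrays, which share the slide and scan of their genotype.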

How the data were processed

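Per the labels' protocols, total RNA of esophageal tissue carried Cy5, and Cy3 marked a pooled reference RNA. The deposited scanner files hold mean spot and median local background intensity per channel, and the log10 ratio of both dyes, written by Agilent Feature Extraction 10.7.3.1 per the file headers (9.1 per the submitters' processing notes). The deposited value table holds log2 ratios that correlated with each array's own ratio at r of 0.992 or more; its centring is not given in the sources used here, and its column medians lay between -0.213 and -0.0281. The median sample intensity per array was 309 to 472; depth does not apply to arrays, and the number of arrays limits the precision.

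Spots called outliers (119 to 171 per array) and 1639 control spots were left out. Background was corrected by normexp with an offset of 50, ratios were normalized by loess within arrays, and Aquantile was added between arrays for the sample channel. Of 41174 probes, 33749 well above background on at least 2 arrays were kept, and the brightest stood for its gene name. Names came from accessions (26918 probes), from symbols or synonyms (5899) or from the file (8357). In a bound, a dim array takes the lowest signal of any probe well above background, or its own value if that is higher. Genes were tested in limma 3.58.1 (R 4.3.3) over all 9 arrays, with Benjamini-Hochberg adjustment at 0.05.

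Named are the 10 members, list genes that passed (or the lowest p where none did) and the 3 genes nearest in profile to Pkp1, Perp and Dsg2; Dsc3 was not tested and has none. Pkp2 and Cdh1 were added after their values were seen. The members and lists were chosen with earlier results of these data known. Tested on simulated data, the fit called 80.6%, 97% and 98.5% of genes changed by 1, 2 and 3 log2 units in the ratio of knockout against wild type, among 22605 genes. Between both groups without p63 these were 71.6%, 91% and 97% in the ratio and 59.7%, 98.5% and 92.4% in the sample channel. False calls were 13, 6 and 7 in the same order. The simulated noise was independent between genes and arrays, with no slide or scan effect, so these shares need not hold for the real arrays.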

Additional observations from a re-analysis of the deposited data

Results flagged for a closer look

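Wild type replicate 3 stood apart from the other 3 wild type arrays in 2 of the 18 sets of 4 wild type values that were examined (9 genes, ratio and sample channel). Its log2 ratio was 1.38 for Dsc2, where the others were 2.33 to 2.43, and 0.13 for Dsg3, where the others were 0.51 to 0.53. Chance alone marks about 5% of such sets. On that array the normalized reference channel was the highest of the wild type arrays for both genes, at 8.24 for Dsc2 and 6.96 for Dsg3, and the normalized sample channel was the lowest, at 9.62 and 7.09. Before normalization its Cy3 intensity was not the highest: it was 109 for Dsc2, where the others were 110, 111 and 186, and 48.2 for Dsg3, where the others were 45.4, 48.3 and 58.0. The part of that array in the results was tested only by leaving it out, with the values given for each gene in the report.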

How the results depend on the processing

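No member that passed with the settings of the report changed direction under the alternatives run. Of 939 member values under other settings, 876 kept their side of the threshold, 46 lost a call and 17 gained one. The tallies in this paragraph include Dsg3, which entered the tests through wild type alone, so its calls are no evidence of stability. Pkp1 kept its calls against wild type in both measures throughout. The sign of values without a call changed 36 times.

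In the ratio, knockout against wild type gave 74 genes, and 133 with the scanner software's processed signals, 133 with the authors' deposited value table and 115 with only both groups' arrays; 4 members were called, and 2 after scale normalization between arrays. The knockout with Cdx2 against wild type gave 319 genes, and 91 after scale normalization. It gave 50 with only both groups' arrays and 541 with trended and robust variances. Of the 8 members detected in every genotype, 4 were called there, 2 after scale normalization and 1 with only both groups' arrays. With processed signals or the authors' deposited value table, 5 of these 8 were called, a count that is not set against a share of all genes. The knockout with Cdx2 against the knockout gave 0 genes, and 5 with processed signals, 4 with the authors' deposited value table and 1 with trended and robust variances. On the sample channel, that comparison gave 49 genes, 85 with no filter on dim probes and 0 with only both groups' arrays, and the knockout with Cdx2 against wild type gave 556 genes and 281 with only both groups' arrays.

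Leaving out 1 array at a time gave, in the ratio, 21 to 121 genes and 1 to 5 members for knockout against wild type, 58 to 370 genes and 3 to 7 members with Cdx2 against wild type, and 0 to 36 genes and 0 members with Cdx2 against the knockout. For the sample channel these were 180 to 466 genes and 6 to 7 members, 172 to 690 genes and 5 to 7 members, and 6 to 154 genes and 0 members. These member counts include Dsg3, which was detected in wild type alone; over the other 8 genes they were 1 to 5, 3 to 6 and 0 in the ratio and 5 to 6, 4 to 6 and 0 in the sample channel. Where 1 array of the group with Cdx2 was left, it was assumed to vary like the other groups.

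Replicate numbers were shared across genotypes, and nothing in the labels says that they pair the samples. Deviations of same-numbered wild type and knockout arrays correlated at -0.061, 0.0493 and 0.183. Those of arrays with different numbers ran from -0.197 to 0.193, so these values cannot decide whether the numbers pair samples. With the replicate block, the ratio gave 9 genes and 1 member for knockout against wild type, 8 genes and 1 member with Cdx2 against wild type, and 0 genes with Cdx2 against the knockout. The sample channel gave 72 genes and 3 members, 36 genes and 3 members, and 0 genes. The slide as a block was not run, since each slide held 1 genotype, and the filter on all 9 arrays gave no value for Dsg3. Dsc3 and the knockout level of Dsg3 were limited by signal over background.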
